A study of Mus musculus with 14 samples.

Results

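The genes described here are the enzymes that write, maintain, read and remove DNA methylation, together with both EZH methyltransferases of Polycomb repressive complex 2 (PRC2). The 10 genes, Tet1, Tet2, Tet3, Dnmt1, Dnmt3a, Dnmt3b, Uhrf1, Mbd2, Ezh1 and Ezh2, were chosen by name and function from 24091 genes in the counts table, with earlier results of these data known. All 10 had enough reads to be tested, as did 12248 genes in all. They were measured by bulk RNA-seq in sorted spleen T cells, 200000 cells per mouse, from mice of 2 groups. The CP CML group held 8 mice of the genotype Mir142+/+BCR-ABL, and the BC CML group held 6 that lacked the microRNA gene Mir142 (Mir142−/−BCR-ABL). CP CML and BC CML stand for the chronic phase and the blast crisis of chronic myeloid leukaemia, for which these strains served as models. Male and female CD45.2 C57Bl/6j mice between 6 and 10 weeks old were used, both groups carried the SCLtTA/BCR-ABL transgenes, and BCR-ABL had been switched on for 3 weeks by withdrawing tetracycline (tet-off). The SCL promoter drives the transactivator mainly in blood stem and progenitor cells, and Mir142 is deleted in every cell of the Mir142−/− mouse, so that neither change is limited to T cells. No mice without BCR-ABL were among these bulk libraries. In a bulk sample, fewer cells of one type and less RNA per cell cannot be told apart.

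DNA methylation is the addition of a methyl group to cytosine, mostly where it is followed by guanine. Dnmt3a and Dnmt3b place new methyl groups, Dnmt1 copies existing ones onto the new strand after replication, with Uhrf1 bringing it to half-methylated sites, and Mbd2 binds methylated DNA as part of the NuRD complex. Tet1, Tet2 and Tet3 oxidise methylcytosine, which leads to its removal. In T cells, TET enzymes and Dnmt3a are known for their roles in the stability of regulatory T cells and in effector and memory fates. Ezh2 and its paralog Ezh1 are the catalytic subunits of PRC2, which methylates histone H3 on lysine 27 at silent genes.

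The deleted locus makes miR-142-3p and miR-142-5p, and Tet2 has been described in regulatory T cells as a target of miR-142-3p. The mature sequences are printed because the matches in the 3′UTRs of these genes follow from their seeds, bases 2 to 8, in capitals. They were taken from RefSeq (GRCm38.p6, chr11:87756903-87756925 and chr11:87756867-87756887, plus strand).
miR-142-3p: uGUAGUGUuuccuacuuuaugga
miR-142-5p: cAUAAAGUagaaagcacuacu

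Each gene's longest 3′UTR in GENCODE vM21, which is on the same build as the counts (mm10, GRCm38), was searched on its own strand for the 8-base site of each arm (ACACTACA for miR-142-3p and ACTTTATA for miR-142-5p) and for the 7-base sites within it. Those of miR-142-3p were ACACTAC and CACTACA. Those of miR-142-5p were ACTTTAT and CTTTATA. A 7-base match inside an 8-base match was not counted again. Tet3 held the 8-base site of miR-142-3p, and Dnmt3a and Ezh1 each held a 7-base site. Tet1 held a 7-base site of miR-142-5p. Windows of 30 bases around these sites follow, with the site in capitals, since 3 of these 4 genes fell and 1 rose in the mice that lack the microRNA.
Tet3, chr6:83365334-83365363, minus strand, bases 2690 to 2697 of a 3′UTR of 5669 bases: ctgactttcacACACTACAtgtataaccta
Dnmt3a, chr12:3911914-3911943, plus strand, bases 4178 to 4184 of 6696: agcttttatggCACTACAaggtcttcagga
Ezh1, chr11:101191615-101191644, minus strand, bases 1306 to 1312 of 1824: acatactccttCACTACActggcaggtccg
Tet1, chr10:62811238-62811267, minus strand, bases 1276 to 1282 of 7962: ttaattgacttCTTTATAtaccaagaatga

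Tet3, Ezh1 and Mbd2 also held a 7-base site of miR-142-5p each. No window is printed for Mbd2, which did not pass the threshold. Tet2, Dnmt1, Dnmt3b, Uhrf1 and Ezh2 held none of these letters in the searched 3′UTR, which says nothing of other kinds of sites. Long 3′UTRs hold such letters often. Of 497 tested genes with a 3′UTR about as long as that of Tet3, 35.0% had a match to miR-142-3p, and of 1551 genes like Tet2 in this respect, 22.1% had one. The share was 42.1% for genes like Dnmt3a and 14.1% for genes like Ezh1. Of genes like Tet1 in length, 73.8% had a match to miR-142-5p. Over all 11503 tested genes with a 3′UTR, 3.04% held the 8-base site of miR-142-3p. At the threshold used below, 57.43% of those genes rose and 15.14% fell in BC CML, against 31.36% and 34.32% of the genes with no match to miR-142-3p. With any 8-base or 7-base match to miR-142-3p, 48.85% rose and 21.95% fell. With any such match to miR-142-5p, 39.88% rose and 28.47% fell, against 31.52% and 34.15% without one.

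Library totals lay between 15703702 and 19914531 reads, and Mir142 had between 302 and 650 reads in each CP CML mouse and 0 in each BC CML mouse. Values are given as CPM, the reads scaled to library size after TMM normalization, and log2 fold changes are BC CML against CP CML from the quasi-likelihood test of edgeR, adjusted by the Benjamini-Hochberg method over all 12248 genes, called at an adjusted p below 0.05. The labels of the CP CML mice share one number and those of the BC CML mice another, without saying what it stands for, so that whatever it marks and the genotype cannot be told apart, and the p-values measure the spread between mice. Cd3e, a subunit of the T cell receptor complex, was at 363 to 434 CPM in CP CML and 385 to 430 CPM in BC CML. Of the other chains of the complex, Cd3d was not called either. Cd3g rose from a mean of 452 to 683 CPM and Cd247 fell from 315 to 252 CPM, each without overlap between groups. Summed marker levels of several cell types did not overlap between the groups. Naive T cell markers (8 genes) summed to 4919 to 6275 CPM in CP CML and 2702 to 3875 CPM in BC CML, and effector and memory markers (16 genes) to 870.1 to 1084 and 1753 to 2405 CPM. Myeloid markers (14 genes) summed to 64.8 to 720 and 843 to 2231 CPM, with Lyz2 and S100a9 above 0 in each mouse, and NK cell markers (6 genes) to 66.7 to 93.1 and 194 to 321 CPM. T cell identity markers (14 genes) summed to 5442 to 6109 and 6575 to 6921 CPM. B cell markers (10 genes), at 44.1 to 159 and 77.6 to 478 CPM, and erythroid markers, at 152 to 192 and 177 to 231 CPM, overlapped. By gene, 8 of 8 naive markers were lower, 12 of 16 effector and memory markers higher and 2 lower, 13 of 14 myeloid, 8 of 10 B cell, 5 of 5 tested NK cell and 2 of 6 tested erythroid markers higher, and 7 of 14 T cell identity markers higher and 2 lower, where 32.6% of all tested genes were higher and 32.7% lower. The myeloid, B cell and NK cell counts include genes nearly absent from CP CML that passed the filter on low counts through the BC CML mice (Ly6g, Vpreb3 and Klra8).

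Tet1 and Tet3 fell in T cells of BC CML mice while Tet2 did not pass the test, so that the TET transcripts differed in their response. Dnmt3a rose modestly, Ezh1 fell slightly, and Dnmt1, Uhrf1, Dnmt3b, Mbd2 and Ezh2 did not pass the test. In all, 4 of the 10 genes were called, 1 higher and 3 lower, in a comparison in which 65.2% of all tested genes were called, 32.6% higher and 32.7% lower. In 3 of the 10 genes the groups did not overlap, against 36.9% of all tested genes. The median absolute log2 fold change was 0.076 over the 10 genes and 0.28 over all tested genes. The plot of all 10 genes by mouse shows these levels.

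**Figure D1:**
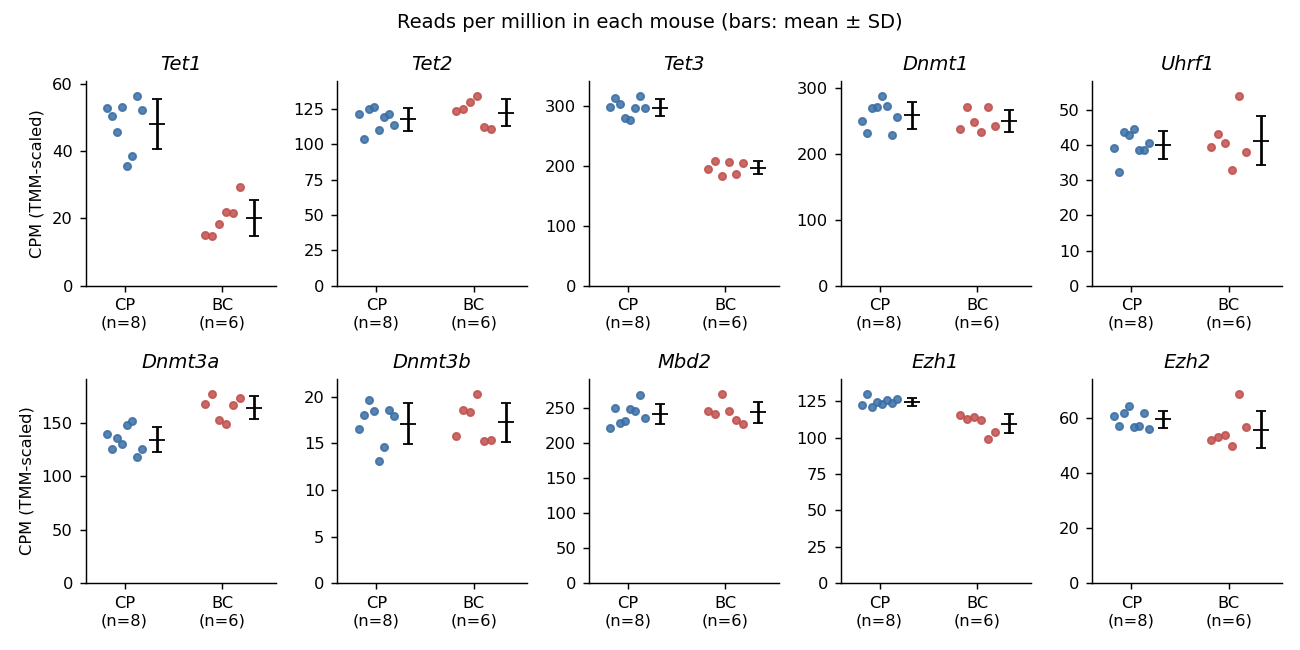
TMM-scaled CPM (vertical axis from 0) of the 10 genes in each of 8 CP CML (blue) and 6 BC CML (red) mice, 1 point per mouse, with the mean ± SD as black bars. The groups are apart for Tet1, Tet3 and Ezh1 and overlap for the other genes.

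Tet1, the TET enzyme with a DNA-binding CXXC domain, showed the largest change of the 10 genes. It lies on the minus strand of chromosome 10 (mm10, chr10:62804570-62880014). Its level was lowest at 35.4, had a median of 51.4 and was highest at 56.3 CPM in CP CML, and was 14.7, 19.9 and 29.3 CPM in BC CML. Each BC CML mouse was below each CP CML mouse. The mean was 48.1 ± 7.5 CPM in CP CML (SD, n = 8) against 20.1 ± 5.44 CPM in BC CML (SD, n = 6), a 2.39-fold lower level. The log2 fold change was −1.26 (SE 0.15, 95% interval −1.58 to −0.93, edgeR adjusted p = 3.7e-06). Tet1 ranked 1132 of 12248 genes by the size of its change, and it also varied most between mice of one group among the 10 genes, with a coefficient of variation of 15.6% in CP CML and 27.1% in BC CML.

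The fall of Tet1 went along with that of the naive T cell markers. Among CP CML mice, Tet1 and the naive marker score (the mean log2 CPM of 8 genes such as Ccr7 and Lef1) had a Pearson's r of 0.90 (n = 8, exact permutation p = 0.00092, adjusted p = 0.017 over 18 relations) and a Spearman's rho of 0.86 (exact permutation p = 0.011, adjusted p = 0.15). Without the 2 mice farthest from the median score, r was 0.74 (n = 6, exact permutation p = 0.11). Among BC CML mice r was 0.36 (n = 6, exact permutation p = 0.49, adjusted p = 0.59) and rho 0.37 (exact permutation p = 0.50, adjusted p = 0.63), and r was 0.28 without the 2 farthest mice. With this score as a covariate, the log2 fold change of Tet1 was −0.21 (SE 0.45, edgeR adjusted p = 0.79), so that the call was lost, in a fit in which the score itself separates the groups. With the myeloid score as a covariate it was −1.36 (SE 0.23, edgeR adjusted p = 0.00024).

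Tet3, a TET enzyme that also carries a CXXC domain in its longer form, fell with the lowest p-value of the 10 genes. The gene lies on the minus strand at chr6:83362374-83456392, and its 3′UTR holds the 8-base miR-142-3p match printed above. In CP CML its lowest, median and highest levels were 275, 297 and 316 CPM, and in BC CML 182, 199.99 and 207 CPM. The lowest CP CML mouse was thus above the highest BC CML mouse by a wide margin. Means were 297 ± 14.2 CPM (SD, n = 8) and 197 ± 11.1 CPM (SD, n = 6), a 1.51-fold lower level in BC CML (log2 fold change −0.59, SE 0.04, 95% interval −0.68 to −0.50, edgeR adjusted p = 1.3e-09). Tet3 kept its call with the naive score as a covariate (−0.60, SE 0.14, edgeR adjusted p = 0.0078) and with the myeloid score (−0.65, SE 0.06, edgeR adjusted p = 3.5e-07). Within groups it related to the naive score with r = 0.73 in CP CML (n = 8, exact permutation p = 0.041, adjusted p = 0.15, rho 0.69, exact permutation p = 0.069, adjusted p = 0.25) and r = −0.55 in BC CML (n = 6, exact permutation p = 0.26, adjusted p = 0.43, rho −0.60, exact permutation p = 0.24, adjusted p = 0.40), neither past the adjusted threshold. Without the 2 farthest mice r was 0.28 in CP CML and turned to 0.40 in BC CML.

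Tet2, the TET gene most often mutated in human blood cancers, lies on the minus strand at chr3:133463677-133544390 and did not pass the test. Its lowest, median and highest levels were 104, 121 and 127 CPM in CP CML and 111, 124 and 134 CPM in BC CML. The groups overlapped over most of their range. Its log2 fold change was 0.06 (SE 0.05, edgeR adjusted p = 0.35), with a 95% interval from −0.05 to 0.17. With the myeloid score as a covariate it was 0.20 (SE 0.07, edgeR adjusted p = 0.026) and was called higher.

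The balance among the TET transcripts was compared within each mouse as a log2 ratio of reads per length. Of 5 ratios between related genes, the TET ratios were those that differed. Tet2/Tet3 was −1.19 ± 0.13 (SD, n = 8) in CP CML, or 0.437 on the linear scale, and −0.54 ± 0.13 (SD, n = 6) in BC CML, or 0.686. These ratios use 1 annotated length per gene and do not separate shorter and longer forms. The difference of 0.65 had an exact two-sided permutation p of 0.000333 over 3003 regroupings, the smallest they allow, and an adjusted p of 0.00083 over the 5 ratios (exact permutation test). Tet1/Tet2 fell from −1.72 ± 0.24 (SD, n = 8) to −3.06 ± 0.44 (SD, n = 6), a difference of −1.34 with the same exact permutation p and adjusted p. Neither ratio overlapped between groups.

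**Figure D2:**
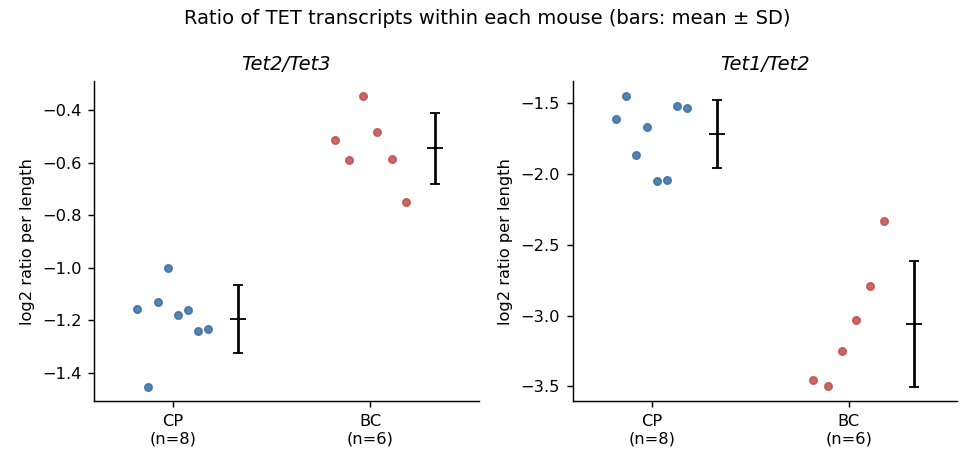
Log2 ratios of Tet2 to Tet3 (left) and of Tet1 to Tet2 (right), per length, in each CP CML (blue, n = 8) and BC CML (red, n = 6) mouse, with the mean ± SD as black bars. Tet2/Tet3 lies between −1.45 and −0.999 in CP CML and between −0.75 and −0.34 in BC CML, and Tet1/Tet2 is lower in each BC CML mouse than in any CP CML mouse.

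Dnmt1, the maintenance methyltransferase (minus strand, chr9:20907206-20959888), did not pass the test. Its lowest, median and highest levels were 230, 264 and 288 CPM in CP CML and 234, 246 and 272 CPM in BC CML. All BC CML values fell inside the CP CML range. The log2 fold change was −0.05 (SE 0.05, 95% interval −0.16 to 0.07, edgeR adjusted p = 0.48). With the naive score as a covariate it was −0.47 (SE 0.14, edgeR adjusted p = 0.032) and was called lower.

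Uhrf1, which guides Dnmt1 to newly replicated DNA (plus strand, chr17:56303337-56323486), had 32.4, 39.8 and 44.5 CPM as its lowest, median and highest levels in CP CML and 32.9, 39.8 and 53.8 CPM in BC CML. The medians lay close together and 1 BC CML mouse, replicate 5, stood above all others. The label of that mouse ends in RP, unlike the others, and the suffix is not explained. Uhrf1 had a log2 fold change of 0.04 (SE 0.09, 95% interval −0.15 to 0.24, edgeR adjusted p = 0.70). The Dnmt1/Uhrf1 log2 ratio was 1.76 ± 0.09 in CP CML (SD, n = 8) against 1.68 ± 0.16 in BC CML (SD, n = 6), a difference of −0.08 (exact permutation p = 0.30, adjusted p = 0.38).

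Dnmt3a, the de novo methyltransferase most used in mature T cells, was the gene among the 10 that rose. It lies on the plus strand at chr12:3806523-3914443. Its lowest, median and highest levels were 118, 133 and 152 CPM in CP CML and 149, 167 and 177 CPM in BC CML. The highest CP CML mouse reached just above the lowest BC CML mouse, and the rest were apart. Means were 134 ± 11.8 CPM (SD, n = 8) and 164 ± 11.1 CPM (SD, n = 6), with a log2 fold change of 0.29 (SE 0.06, 95% interval 0.17 to 0.41, edgeR adjusted p = 0.00024). Among CP CML mice Dnmt3a was higher where the naive score was lower (r = −0.86, n = 8, exact permutation p = 0.0065, adjusted p = 0.039; rho −0.79, exact permutation p = 0.028, adjusted p = 0.17). Without the 2 farthest mice r was −0.76 (n = 6, exact permutation p = 0.082). Among BC CML mice r was −0.46 (n = 6, exact permutation p = 0.38, adjusted p = 0.52) and rho −0.31 (exact permutation p = 0.56, adjusted p = 0.63), and r turned to 0.68 without the 2 farthest mice. With the naive score as a covariate, the log2 fold change was −0.12 (SE 0.16, edgeR adjusted p = 0.66), no longer a call and of the other sign, and with the myeloid score it was 0.29 (SE 0.09, edgeR adjusted p = 0.016).

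Dnmt3b, the second de novo enzyme (plus strand, chr2:153649449-153687730), had 13.1, 18 and 19.7 CPM as its lowest, median and highest levels in CP CML and 15.3, 17.1 and 20.3 CPM in BC CML. The groups overlapped over much of their range. The log2 fold change was 0.01 (SE 0.09, 95% interval −0.19 to 0.21, edgeR adjusted p = 0.92). The Dnmt3a/Dnmt3b log2 ratio was 1.59 ± 0.31 in CP CML (SD, n = 8) against 1.87 ± 0.24 in BC CML (SD, n = 6), a difference of 0.28 (exact permutation p = 0.094, adjusted p = 0.16). Without CP CML replicate 5 the difference was 0.35 (adjusted p = 0.047, exact permutation test).

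Mbd2, the reader (plus strand, chr18:70568292-70626131), had the highest level per length of the 10 genes. Its lowest, median and highest levels were 222, 241 and 269 CPM in CP CML and 228, 244 and 271 CPM in BC CML. The ranges were nearly the same. Mbd2 had a log2 fold change of 0.01 (SE 0.05, 95% interval −0.08 to 0.11, edgeR adjusted p = 0.80).

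Ezh1, the PRC2 enzyme that predominates in resting cells (minus strand, chr11:101191115-101226463), fell slightly but evenly. Its lowest, median and highest levels were 121, 124 and 130 CPM in CP CML, the tightest spread of the 10 genes with a coefficient of variation of 2.30%, and 99.0, 112 and 116 CPM in BC CML. The groups did not overlap. Means were 124 ± 2.87 CPM (SD, n = 8) and 110 ± 6.66 CPM (SD, n = 6), a 1.14-fold lower level (log2 fold change −0.18, SE 0.04, 95% interval −0.26 to −0.10, edgeR adjusted p = 0.00037). With the naive score as a covariate it was −0.13 (SE 0.12, edgeR adjusted p = 0.52), and the call was lost. Within groups its r with the naive score was 0.43 in CP CML (n = 8, exact permutation p = 0.29, adjusted p = 0.44, rho 0.29, exact permutation p = 0.50, adjusted p = 0.63) and 0.07 in BC CML (n = 6, exact permutation p = 0.91, adjusted p = 0.91, rho 0.31, exact permutation p = 0.56, adjusted p = 0.63), and without the 2 farthest mice it was 0.56 and 0.12.

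Ezh2, the PRC2 enzyme of dividing cells (minus strand, chr6:47530274-47595338), did not pass the test with all mice. Its lowest, median and highest levels were 56.2, 59.0 and 64.5 CPM in CP CML and 50.03, 53.6 and 68.8 CPM in BC CML. The highest value of all 14 mice was that of BC CML replicate 5. The log2 fold change was −0.10 (SE 0.06, 95% interval −0.22 to 0.03, edgeR adjusted p = 0.18), and without that mouse it was −0.17 (SE 0.04, edgeR adjusted p = 0.0037), a call for a lower level. The Ezh2/Ezh1 log2 ratio was 0.05 ± 0.10 in CP CML (SD, n = 8) against 0.14 ± 0.25 in BC CML (SD, n = 6), a difference of 0.09 (exact permutation p = 0.44, adjusted p = 0.44) that was −0.0052 without BC CML replicate 5.

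**Figure D3:**
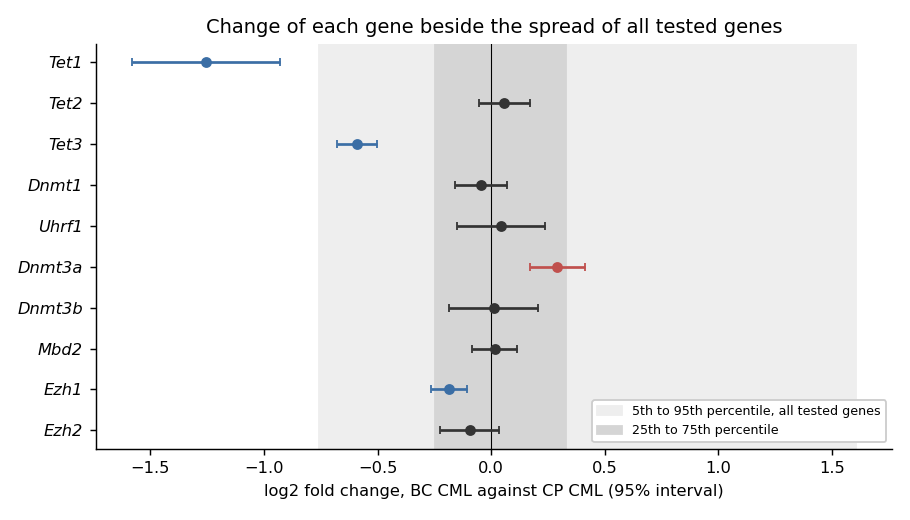
Log2 fold change of BC CML (n = 6) against CP CML (n = 8) for the 10 genes (points, with 95% intervals from edgeR; red called higher, blue called lower, grey not called), over bands that mark the spread of all 12248 tested genes. Tet1 at −1.26 lies below the band that ends at the 5th percentile, −0.76; Tet3 at −0.59 lies below the 25th percentile, −0.25.

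BC CML replicate 5 also had the highest summed level of 22 proliferation markers, 1682 CPM, where the other BC CML mice had 1073 to 1263 CPM and the CP CML mice 1241 to 1491 CPM. Of these markers, 4 were lower in BC CML and 18 did not pass the test, where 32.7% of all tested genes were lower. The 4 were Mcm2, Mcm3, Mcm4 and Pcna, parts of the replication machinery, named here after their values were seen. Ezh2 related to the proliferation score (mean log2 CPM of the 22 genes) with r = 0.995 among BC CML mice (n = 6, exact permutation p = 0.0028, adjusted p = 0.025) and rho 0.94 (exact permutation p = 0.017, adjusted p = 0.15). Without the 2 mice farthest from the median, r was 0.93 over 4 mice (exact permutation p = 0.17). Among CP CML mice r was 0.66 (n = 8, exact permutation p = 0.087, adjusted p = 0.22) and rho 0.71 (exact permutation p = 0.058, adjusted p = 0.25), and r was 0.62 without the 2 farthest mice.

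Uhrf1 related to the same score with r = 0.90 in BC CML (n = 6, exact permutation p = 0.024, adjusted p = 0.11; rho 0.66, exact permutation p = 0.18, adjusted p = 0.35) and 0.67 in CP CML (n = 8, exact permutation p = 0.070, adjusted p = 0.21; rho 0.45, exact permutation p = 0.27, adjusted p = 0.40). Without the 2 farthest mice these were −0.19 and 0.29, so that the relation rests on those mice. For Dnmt1, Dnmt3b and Tet1, exact permutation p for r with the proliferation score lay between 0.099 and 0.69 (adjusted p 0.22 to 0.73) and for rho between 0.083 and 0.80 (adjusted p 0.25 to 0.80). Their r was 0.70, −0.62 and 0.30 in BC CML and 0.17, 0.46 and 0.34 in CP CML, and their rho was 0.71, −0.77 and 0.14 in BC CML and −0.14, 0.67 and 0.48 in CP CML. Without the 2 farthest mice their r lay between −0.03 and 0.81.

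**Figure D4:**
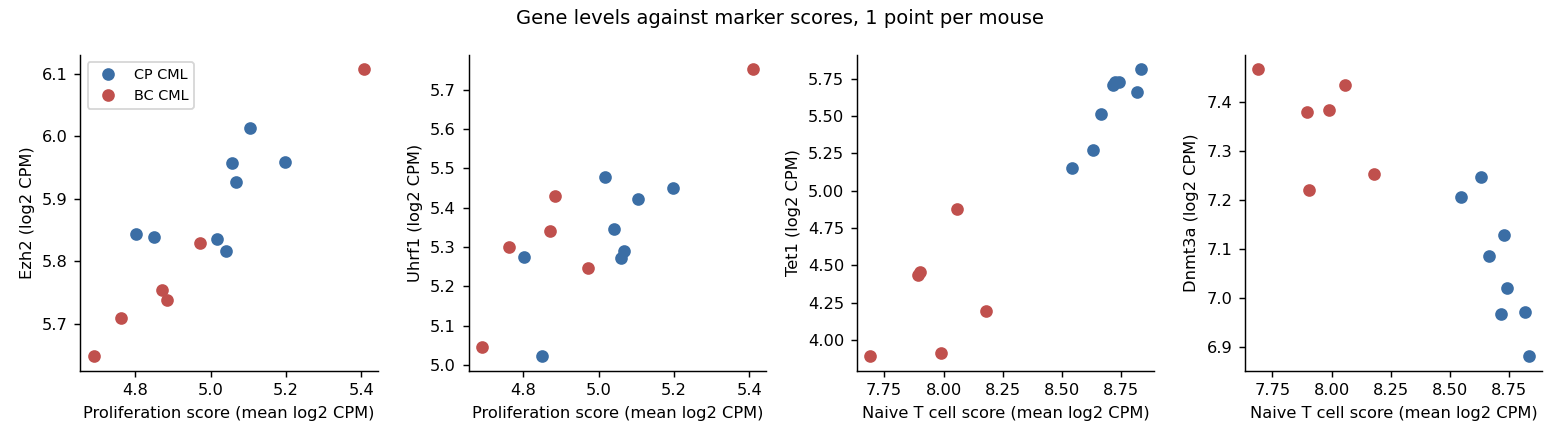
Log2 CPM of Ezh2 and Uhrf1 against the proliferation score, and of Tet1 and Dnmt3a against the naive T cell score (both scores are mean log2 CPM), 1 point per CP CML (blue, n = 8) or BC CML (red, n = 6) mouse. Replicate 5 of BC CML is the point at the upper right of the Ezh2 and Uhrf1 panels, and the naive scores of the groups do not overlap.

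Per length, Mbd2 was the most abundant of the 10 transcripts and Tet1 the least in both groups. In CP CML the order by mean RPKM was Mbd2 at 103, Dnmt1 at 37.2, Tet3 at 24.9, Ezh2 at 21.3, Ezh1 at 20.5, Dnmt3a at 11.9, Uhrf1 at 11.01, Tet2 at 10.9, Dnmt3b at 3.98 and Tet1 at 3.35. Ezh2 and Ezh1 overlapped between mice, as did Dnmt3a with Uhrf1, Uhrf1 with Tet2, and Dnmt3b with Tet1. In BC CML, Tet3 was at 16.5 RPKM, behind Ezh2 at 19.9 and Ezh1 at 18.1 and overlapping with Ezh1 and with Dnmt3a at 14.6. Tet1 was at 1.40 RPKM and no longer overlapped with Dnmt3b at 4.01.

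The genes whose deviations from the group means over the 14 mice were most like those of a given gene were sought among 9161 genes with an average log2 CPM of at least 3. For Uhrf1 they were Lig1 (r = 0.97), Mcm5 (0.94) and Lgals1 (0.93), and for Ezh2 they were Knl1 (0.93), Cdca8 (0.93) and Kif11 (0.93). For Tet1 they were Camk4 (0.94), Lancl2 (0.94) and Zfp524 (0.93), and for Dnmt3a Maz (0.94), Pbx2 (0.91) and Lasp1 (0.91). Dnmt1 was most like Ptprs (0.94), Brip1 (0.92) and Vasp (0.92), Dnmt3b like Zkscan5 (0.91), Txk (0.89) and Ap3m2 (0.88), and Tet2 like Klhl17 (0.89), Leng8 (0.88) and Snapc4 (0.87). Tet3 had less close neighbours, Poc5 (0.86), Pdxk (0.81) and Scnm1 (0.80). Mbd2 was like Sh3bp5 (0.87) and Gclc (0.86) and Ezh1 like Gm614, Cracr2a and Fam214a (each 0.86). Among the 10 genes themselves the closest pairs were Dnmt1 with Uhrf1 (0.77) and Uhrf1 with Ezh2 (0.71), and the most opposed were Ezh1 with Ezh2 (−0.81) and Dnmt3a with Dnmt3b (−0.71). BC CML replicate 5 had both the highest Ezh2 (68.8 CPM) and the lowest Ezh1 (99.0 CPM) of all 14 mice. How far the Ezh1 and Ezh2 pair, or the neighbours of Ezh2, rest on that mouse was not tested. In each mouse these genes were read from the same library at the same depth, and the values carry no test.

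Partners of the methylation machinery were described by lists of known function. Of 17 tested partners of DNA methylation, 3 were higher, 8 lower and 6 did not pass the test, with a median log2 fold change of −0.12, against −0.01 over all tested genes, of which 32.6% were higher and 32.7% lower. The 11 called of 17 are close to the 65.2% called over all genes. Usp7, a deubiquitinase that stabilises Dnmt1 and Uhrf1, was at 445 to 508 CPM in CP CML and 369 to 400 CPM in BC CML (log2 fold change −0.33, SE 0.04, edgeR adjusted p = 5.1e-07), and its groups did not overlap. Mbd3, a NuRD subunit related to Mbd2, rose by 0.26 on the log2 scale (SE 0.07, edgeR adjusted p = 0.0029), but was at −0.14 with the naive score as a covariate (edgeR adjusted p = 0.66) and lost its call with the myeloid score (edgeR adjusted p = 0.053). The other genes that rose were Mbd1 and Zbtb38, readers of methylated DNA, at 0.14 and 0.10. The remodeller Hells (−0.01) and the Uhrf1 paralog Uhrf2 (0.01) were among those that did not pass.

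Of 12 tested TET partners, which process oxidised methylcytosine or supply TET cofactors, 4 were higher and 4 lower, with a median of 0.15. This too is close to the 65.2% called over all genes. Cxxc5, a CXXC protein that binds Tet2, rose from 16.6 ± 2.31 CPM (SD, n = 8) to 40.4 ± 6.98 CPM (SD, n = 6), with 13.5 to 19.2 CPM in CP CML and 32.8 to 49.5 CPM in BC CML (log2 fold change 1.28, SE 0.11, edgeR adjusted p = 1.7e-08). With the naive score as a covariate its change was 0.95 (edgeR adjusted p = 0.070). Idh1, which makes the TET cofactor 2-oxoglutarate, rose by 1.02 on the log2 scale (SE 0.13, edgeR adjusted p = 2.2e-06), and Smug1, a glycosylase, by 0.55. With the naive score Idh1 was at 0.51 (SE 0.39, edgeR adjusted p = 0.41) and Smug1 at 0.52 (edgeR adjusted p = 0.11), neither called. The mitochondrial Idh2 fell by 0.24, and the repair-linked Gadd45g and Gadd45b fell by 0.43 and 0.34, of which Gadd45g was at 0.53 with the naive score (edgeR adjusted p = 0.46) and lost its call without any 1 of BC CML replicates 2 (−0.38), 4 (−0.40) and 6 (−0.33), on replicates 1 to 6 of each group (edgeR adjusted p = 0.052), and with the myeloid score (−0.31, edgeR adjusted p = 0.30). Slc23a2, a vitamin C transporter, rose by 0.16, D2hgdh fell by 0.27, and Tdg, the glycosylase that removes oxidised methylcytosine, was at −0.10 and did not pass the test (edgeR adjusted p = 0.28).

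NuRD, the remodelling and deacetylase complex that Mbd2 joins, had 2 of 12 subunits higher and 8 lower, with a median of −0.22, where 32.6% of all tested genes were higher and 32.7% lower. Mta3 rose by 0.24 (0.0091 with the naive score, edgeR adjusted p = 0.98) and Hdac1 by 0.16, and Cdk2ap1 fell by 0.49 on the log2 scale (edgeR adjusted p = 6.6e-06). Of 11 other PRC2 subunits, 7 were lower and 1 higher, with a median of −0.22, against the same shares over all genes. Suz12, the core scaffold, fell from 213 ± 10.5 CPM (SD, n = 8) to 169 ± 4.27 CPM (SD, n = 6), with no overlap between groups (log2 fold change −0.34, SE 0.04, edgeR adjusted p = 2.9e-07). Eed, the core subunit that binds methylated lysine 27, fell by 0.22 (edgeR adjusted p = 0.0019). Lcor, a gene whose locus encodes a PRC2 accessory protein, rose by 0.34, and its call was lost with the myeloid score (0.14, edgeR adjusted p = 0.26) and with the naive score (0.26, edgeR adjusted p = 0.53). Rbbp4 and Rbbp7 belong to both complexes, are counted in both lists, and both fell, by 0.24 and 0.19. The H3K27 demethylases were both lower, Kdm6b by 0.23 (edgeR adjusted p = 0.019) and Kdm6a by 0.09 (edgeR adjusted p = 0.029). Kdm6b lost its call with the myeloid score (−0.13, edgeR adjusted p = 0.41) and was at −0.88 with the naive score (edgeR adjusted p = 0.0084). Kdm6a was near the threshold and lost its call in 8 of 25 alternatives, among them the likelihood ratio test (edgeR adjusted p = 0.055) and the fits without CP CML replicate 2 or BC CML replicate 2 or 5, and it was at 0.12 with the naive score.

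Of 20 subunits of PRC1, the complex that binds the PRC2 mark and ubiquitinates histone H2A, 7 were higher and 5 lower, with a median of −0.01, again beside 32.6% and 32.7% of all genes. Cbx6 had 60.6 to 68.4 CPM in CP CML and 131 to 148 CPM in BC CML (log2 fold change 1.07, SE 0.04, edgeR adjusted p = 8.2e-14). The groups did not overlap.

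**Figure D5:**
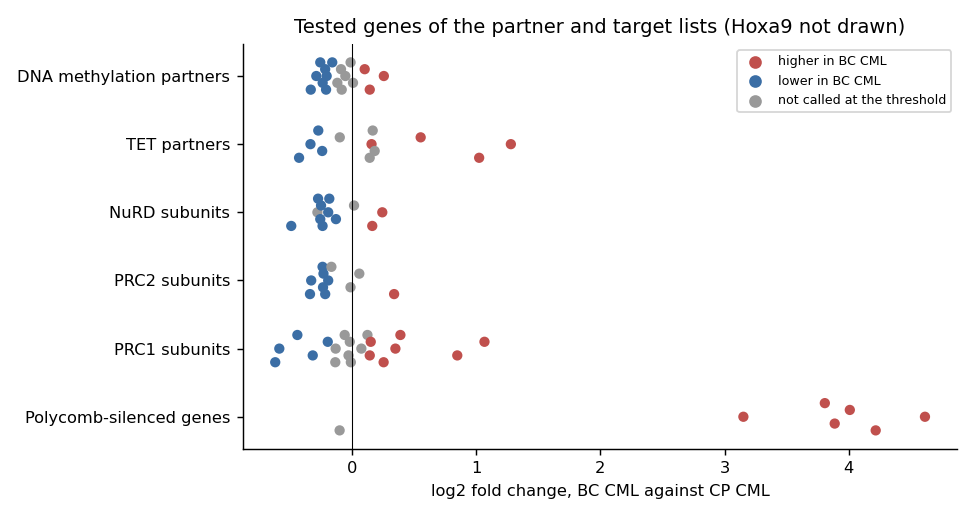
Log2 fold change of BC CML (n = 6) against CP CML (n = 8) of the tested genes in 6 lists, 1 point per gene (red higher, blue lower, grey not called by edgeR), spread vertically for legibility. Most NuRD and PRC2 subunits lie to the left of 0, and the Hoxa genes lie beyond 3 on the right; Hoxa9, without reads in CP CML, is not drawn.

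Genes that DNA methylation or Polycomb keep silent in most tissues were examined as well. Of 15 germline genes known to be silenced by DNA methylation, 14 were below the filter on low counts in both groups and 5 had no reads in any mouse. Brdt alone was tested, with a log2 fold change of −0.08 (edgeR adjusted p = 0.63). Of 22 imprinted genes, which carry methylation on one parental copy, 8 were tested, 3 higher and 3 lower, near the 65.2% called over all genes. At its low level Igf2 passed the filter through the CP CML mice, in which it was high, so that its place in this count carries no weight. Gnas, a G protein subunit, rose from 413 ± 15.8 CPM (SD, n = 8) to 643 ± 46.1 CPM (SD, n = 6), a log2 fold change of 0.64 (edgeR adjusted p = 7.1e-10). Cdkn1c, an inhibitor of cyclin-dependent kinases, rose by 2.03 (SE 0.19, edgeR adjusted p = 5.2e-08) at low levels, from 0.739 to 3.01 CPM. Igf2 was at 0.785 CPM in CP CML and 0.271 CPM in BC CML on average.

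Of 22 genes of the Hoxa, Hoxb and Cdkn2 loci, which Polycomb silences in most differentiated cells, 8 were tested. Hoxa2, Hoxa3, Hoxa4, Hoxa5, Hoxa6, Hoxa7 and Hoxa9, transcription factors of progenitor cells, were higher in BC CML, and Hoxb4 was not called (−0.10, edgeR adjusted p = 0.59). The 7 that rose were nearly absent from CP CML and passed the filter through the BC CML mice, so that their number carries no weight of its own. Hoxa5 was at 0.218 to 0.970 CPM in CP CML and 9.91 to 12.6 CPM in BC CML, and Hoxa3 at 0.164 to 0.664 and 6.82 to 10.8 CPM. Hoxa9 had 0 reads in each CP CML mouse and 44 to 112 reads in each BC CML mouse, at least 22.9-fold higher against a floor of 3 reads per library. No Hoxb gene other than Hoxb4 passed the filter. Cdkn2a and Cdkn2b each had at most 6 reads in any mouse.

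The Hoxa genes were higher in the same mice as markers of other cells. Progenitor markers, a list of 7 genes that also holds Hoxa9, had a summed level of 5.21 to 11.3 CPM in CP CML and 26.0 to 54.0 CPM in BC CML. Kit, a receptor of progenitor and mast cells, rose from 3.77 to 25.4 CPM, and Meis1, a partner of Hox proteins, from 0.234 to 1.73 CPM. Flt3 and Tal1 rose by 1.46 and 0.73 on the log2 scale, with groups that overlapped. Gata2, of the same list, was at 0.606 CPM in CP CML and 0.549 CPM in BC CML. It was not called (−0.14, edgeR adjusted p = 0.78). Hoxa9 and Meis1 passed the filter on low counts through the BC CML mice, and Cd34 did not pass it, so that no count of called genes is given for this list. The part that progenitors in the sorted cells play in the Hoxa levels was not tested.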

How the data were processed

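Per the labels and the study's methods, the authors trimmed the reads (Trimmomatic, and FASTP for polyA tails), aligned paired reads of 101 bases to mm10 with STAR 2.6.0, counted them per gene with HTSeq 0.11.1 and deposited raw counts without normalization. The annotation and the strand setting are not given in the sources used here, and hg19 is also listed among the builds of the processing notes. Tet3, Dnmt3a and Ezh1 overlap annotated genes on the opposite strand (B230319C09Rik, Dnmt3aos and Mir5098), to which at most 11 reads were assigned in any library. With the strand setting unknown, this does not show how many reads of the shared stretches went uncounted. The span listed for Mir5098 covers 35349 bases of Ezh1, far more than a microRNA gene, so that this overlap is in doubt.

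Counts were analysed with edgeR 4.0.16 in R 4.3.3: filterByExpr, TMM, and the robust quasi-likelihood test of BC CML against CP CML without covariates, where the study's methods name the likelihood ratio test. Standard errors and 95% intervals were derived from the fold change and the F statistic. Log2 CPM used a prior count of 2. Ratios had 0.5 added to each count and were tested by exact two-sided permutation over samples. Covariates were mean log2 CPM scores of marker lists. On simulated counts (12181 genes) the test recovered 177 of 200 changes of 1 log2 unit, with 8 other calls. Changes as small as those of Tet3 (−0.59), Dnmt3a (0.29) and Ezh1 (−0.18) were not simulated. Nor was a share of changed genes as large as the 65.2% called in the data. The simulation therefore cannot show how the test or the normalization performs under those conditions. Libraries of one group differed by more than sampling noise (chi-square per degree of freedom 3.01 to 22.7). Mice of the groups are different animals, and same-numbered mice did not deviate together (correlations −0.27 to 0.36 over 6 numbers).

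The 10 genes and the lists were chosen with earlier results of these data known. Besides the 10 genes, the text names the risen and the fallen gene of each list with the largest log2 fold change past the threshold; other list genes, the Hoxa genes among them, were named after their values were seen. Some genes under this rule are not reported here. Alternatives included DESeq2 1.42.0 and the likelihood ratio test, scaling by RLE or by library size, the absence of a filter or one at 1 CPM in 6 samples or more, a block on the replicate number, proliferation, myeloid and naive scores as covariates, and each sample left out. Relations with the naive score and replicates 1 to 6 without the block were added after seeing the data.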

Additional observations from a re-analysis of the deposited data

Results flagged for a closer look

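Ezh2 in BC CML replicate 5, at 68.8 CPM, stood apart from the other 5 BC CML mice, of which the nearest had 56.7 CPM. The gap was 0.644 of the group's range, against a critical value of 0.625 for 6 samples. It was the 1 value of this kind among 30 groups of values examined (the 10 genes and 5 ratios in each group), and chance alone gives about 1 in 20. Its label carries the letters RP at the end, unlike the others, with no meaning given. The proliferation markers of the same mouse were also the highest, as given above.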

How the results depend on the processing

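The likelihood ratio test, DESeq2, RLE factors, library size alone, both filters and the proliferation covariate left the number of the 10 genes called higher (1) and lower (3) as it was, and leaving out each mouse gave 1 higher and 3 to 4 lower. With the myeloid score as a covariate 2 were higher and 3 lower. Under the naive score 0 were higher and 2 lower, Tet3 and, newly called, Dnmt1, so that 3 of the 4 calls were lost. Called values that changed sign were Elane at −0.73 with the myeloid score, and Dnmt3a at −0.12, Mbd3 at −0.14, Gadd45g at 0.53 and Kdm6a at 0.12 with the naive score; the cause was not tested. Genes that were not called changed sign as well: Uhrf1 (−0.37) with the naive score, Dnmt1 (0.02) and Mbd2 with the myeloid score, Dnmt3b and Mbd2 with the proliferation score, and Uhrf1 (−0.05 to 0.10), Mbd2 (−0.02 to 0.04) and Dnmt3b (−0.04 to 0.04) among the fits without single mice. Of 40 genes examined that were called, 20 lost their call with the naive score and 8 with the myeloid score, those that changed sign included. Kdm6a also lost it in the likelihood ratio test (−0.09) and without CP CML replicate 2 (−0.08) or BC CML replicate 2 (−0.08) or 5 (−0.09), and Gadd45g without BC CML replicate 2 (−0.38), 4 (−0.40) or 6 (−0.33). Over all genes 7986 were called, 5672 with the myeloid score and 1919 with the naive score. The replicate block kept the calls of Tet1 (−1.21), Tet3 (−0.58), Dnmt3a (0.25) and Ezh1 (−0.18) but not of Kdm6a (−0.08). Between same-numbered mice, the Tet2/Tet3 difference of 0.64 and Tet1/Tet2 difference of −1.28 had an adjusted p of 0.078 (exact permutation test). That is the smallest that sign flips of 6 differences allowed here. The number is not known to pair any mice, so that neither the block nor the sign flips check the design. Leaving out single mice gave 0.61 to 0.69 for Tet2/Tet3, −1.49 to −1.25 for Tet1/Tet2 0.23 to 0.35 for Dnmt3a/Dnmt3b, −0.12 to −0.02 for Dnmt1/Uhrf1 and −0.0052 to 0.12 for Ezh2/Ezh1. Without the 2 mice farthest from the median score, 0 relations with the proliferation score passed instead of 1, with 4 BC CML mice left. Igf2, Meis1 and Vpreb3 had too few reads for the stricter filter, and Igf2 also for the fits on replicates 1 to 6. Fold changes of Hoxa9 depend on the prior count. Depth limits the low Hoxa, Igf2 and Cdkn1c values, each resting on few reads.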

Other observations

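Genes with the largest changes past the threshold in the T cell marker lists were Ccr7, a homing receptor of naive T cells (log2 fold change −1.05, SE 0.10, edgeR adjusted p = 1.8e-07), Gzmb, a cytotoxic granule protease (2.46, SE 0.22, edgeR adjusted p = 4.5e-07), and Prdm1, a regulator of effector cells (−0.88, SE 0.11, edgeR adjusted p = 2.0e-06). Cd8a rose by 0.87 and Cd4 fell by 0.73 on the log2 scale, while Cd8b1 was at 0.07. Klra8, an NK cell receptor, was at 0.148 ± 0.11 CPM (SD, n = 8) in CP CML and 15.85 ± 3.43 CPM (SD, n = 6) in BC CML. Among genes of other cell types, Elane (neutrophil elastase) rose by 3.14, Vpreb3 (a B cell precursor gene) by 3.18 and Slc4a1 (the red cell anion exchanger) by 1.48 on the log2 scale. Mcm4, part of the replicative helicase, fell by 0.64 (edgeR adjusted p = 6.9e-09). With the naive score as a covariate, Ccr7 (−0.08, itself part of the score), Gzmb (1.71), Cd4 (−0.85), Mcm4 (−0.39), Elane (3.59), Vpreb3 (1.95) and Slc4a1 (1.40) lost their calls, and with the myeloid score Elane (−0.73, itself part of the score), Vpreb3 (1.70) and Slc4a1 (0.66) did.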
